A study of Mus musculus with 4 samples.

Results

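The chemokine receptors described here are the 8 mouse genes Cxcr4, Ccr7, Ccr9, Ccr2, Ccr1, Ccr6, Cxcr5 and Cx3cr1. Every probe set annotated to exactly 1 of these symbols was taken, which gave 14 probe sets of the 20393 that carried a single symbol, or 8 of 12394 genes. No probe set with several symbols named any of the 8. The values come from Affymetrix arrays of cultured marrow cells. The donors were Mll-AF4stop knock-in mice, whose fusion construct needs the recombinase Cre to be switched on. All mice had received 5-fluorouracil, a drug that kills dividing blood cells, 5 days before their marrow was infected outside the animal. Cells of the Cre-GFP group received a retrovirus with Cre and GFP, and cells of the control group a GFP retrovirus. In both groups the GFP-positive cells were sorted 2 days later and grown for 14 days with cytokines for lymphoid progenitors, and 20 ng of total RNA was amplified. Each group had 2 arrays. The sample labels call the control virus a GFP control while the design text adds Cre to its name. The sample labels were followed. Effects of Cre itself cannot be told apart from those of the fusion in this design. Strain, age and number of mice are not given in the labels, nor is it said that replicate arrays were grown from different animals, so the p-values cover array-to-array spread that could be technical alone.

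Chemokine receptors are membrane receptors that couple to inhibitory G proteins and steer blood cells along gradients of small secreted proteins, the chemokines. Cxcr4 binds Cxcl12 from stromal cells and holds stem cells and early B cells in the marrow, while Ccr7 and Cxcr5 guide lymphocytes and dendritic cells into lymph nodes and follicles. Ccr9 directs T cell progenitors to the thymus and lymphocytes to the gut, Ccr6 answers to Ccl20 on B cells, T cells and dendritic cells, and Ccr1, Ccr2 and Cx3cr1 are best known on myeloid cells.

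Cxcr4 was the 1 receptor whose probe set stood well above the array floor in all 4 samples. Ccr7 and Cxcr5 lay in the middle of the arrays' range, and the 11 probe sets of the other 5 receptors lay under the 40th percentile of every array. No receptor differed between the groups at an adjusted p under 0.05, with 0 of 14 probe sets called against a background of 0% of 20393 probe sets (limma, Benjamini-Hochberg over all of them). At an unadjusted p under 0.05 there were 2 receptor probe sets, Ccr7 lower in Cre-GFP and 1 of 3 Ccr9 probe sets higher, or 14.3% of 14, against a background of 4.79% of all probe sets (2.42% lower and 2.36% higher). The groups did not overlap for 5 of the 14 probe sets, or 35.7%, against a background of 30% of all probe sets. Of the 5, 2 were lower in Cre-GFP (background 14.6%) and 3 higher (background 15.4%), shares near the background. The median log2 difference (Cre-GFP minus control) was 0.012 over the 14 probe sets and 0.0019 over all those tested. The receptors were chosen with earlier results of these data known, so the shares above are descriptions only.

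The floor was read in 2 ways, because the deposited table gave no detection calls. A value counted as near the floor where it lay under the 20th percentile of all probe sets of its own array, a log2 intensity of 4.69 to 4.76. As a second guide, 22 genes of other tissues, such as albumin and glucagon, which marrow cells should not make, read between the 2.8 and 59.5 percentiles. A value inside that span therefore does not tell a transcribed from a silent gene. By the 20th percentile 6 of the 14 receptor probe sets were near the floor on every array, 2 on some arrays and 6 on none. The brightness of a probe set depends on its probes as well as on its transcript, so the receptors are placed against the floor and not ranked against each other. These are bulk RNA samples, in which fewer cells with a receptor and less receptor RNA per cell cannot be told apart.

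**Figure D1:**
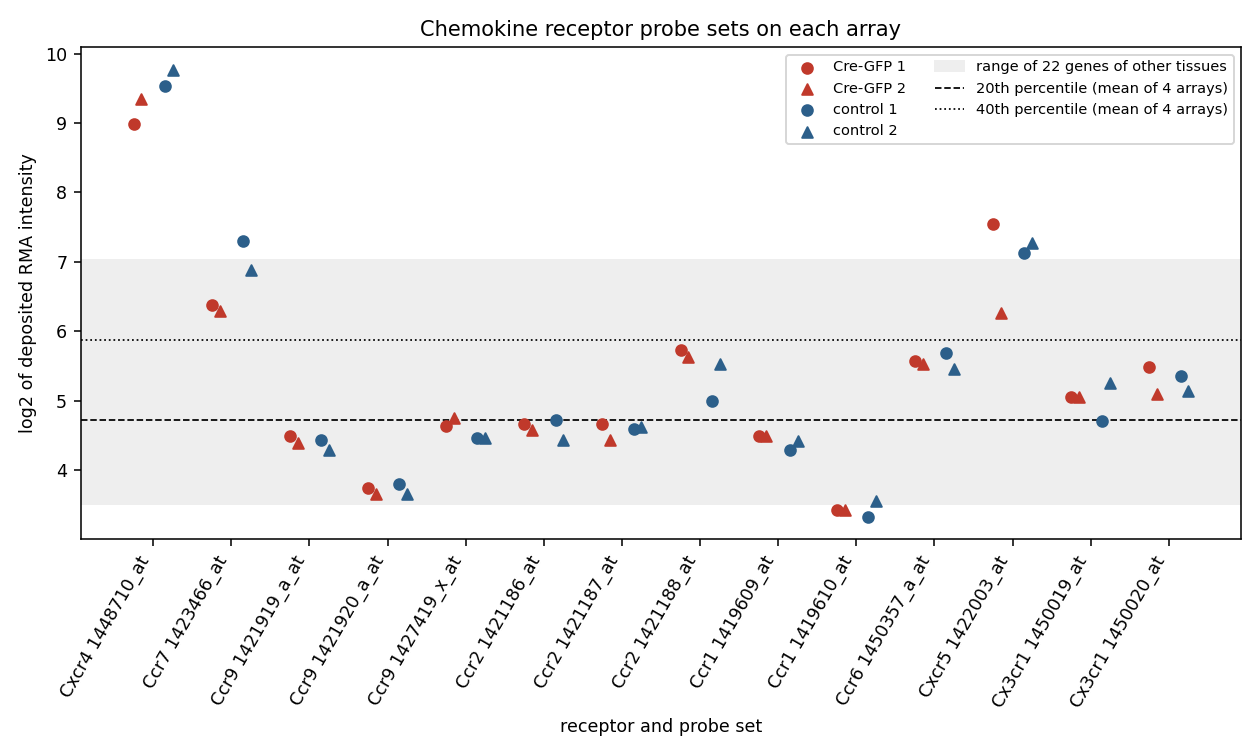
Log2 of the deposited intensity (vertical axis) of the 14 receptor probe sets (horizontal axis) on each array, Cre-GFP in red left of control in blue, with circles for replicate 1 and triangles for replicate 2. Dashed and dotted lines mark the 20th and 40th percentiles and the grey band the range of 22 genes of other tissues. Cxcr4 lies above the band on all 4 arrays, and 11 probe sets lie under the dotted line.

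The log2 intensity of Cxcr4 was 8.99 and 9.35 in Cre-GFP 1 and 2, against 9.53 and 9.77 in control 1 and 2. Both Cre-GFP arrays lay under both control arrays, and all 4 values stood between the 84.5 and 89.5 percentiles, above each of the 22 genes of other tissues. The log2 difference was −0.48 ± 0.20 (SE, n = 2 per group), or 1.39-fold lower in Cre-GFP, with a 95% interval from −0.98 to 0.02, an unadjusted p of 0.057 and an adjusted p of 1 in limma. The gap between the 2 Cre-GFP arrays was 0.36 and that between the control arrays 0.24, so the difference was of the same order as the spread within a group. Leaving out Cre-GFP 1 gave −0.30, and leaving out Cre-GFP 2 gave −0.66.

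The 300 bases around the start of Cxcr4 are shown beside those of Ccr2, to let the receptor read above the floor be set against one read in its lower part. They come from RefSeq (GRCm38.p6), run 5′ to 3′ along the gene's strand from 250 bases before to 50 after the annotated start, and have every CG dinucleotide in capitals. The Cxcr4 window is chr1:128592250-128592549 on the minus strand and the Ccr2 window chr9:124101933-124102232 on the plus strand.
Cxcr4: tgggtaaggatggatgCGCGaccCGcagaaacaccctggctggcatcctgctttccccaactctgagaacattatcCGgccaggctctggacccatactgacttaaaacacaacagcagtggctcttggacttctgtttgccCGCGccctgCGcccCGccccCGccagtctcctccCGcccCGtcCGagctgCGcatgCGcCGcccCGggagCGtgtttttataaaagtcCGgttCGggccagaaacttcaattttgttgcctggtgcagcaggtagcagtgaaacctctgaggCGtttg
Ccr2: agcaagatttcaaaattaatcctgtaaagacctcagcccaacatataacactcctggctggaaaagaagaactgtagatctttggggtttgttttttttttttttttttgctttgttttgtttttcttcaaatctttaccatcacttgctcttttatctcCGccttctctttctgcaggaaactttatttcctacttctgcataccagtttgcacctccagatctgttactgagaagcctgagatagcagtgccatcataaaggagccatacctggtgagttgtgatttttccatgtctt
The Cxcr4 window held 20 CG dinucleotides and the Ccr2 window 1, while the median over 32851 promoter windows of this length was 7. Of all those windows, 73.5% held fewer than the Cxcr4 window and 5.43% fewer than the Ccr2 window. Of the other windows of the 8 receptors, that of Cx3cr1 held 5, that of Ccr9 4, that of Ccr1 1 and the 2 windows of Ccr6 2 and 10. Windows of Ccr7 and Cxcr5 were not used here. Among 10-base palindromes of the Cxcr4 window the one with the most CG dinucleotides began at base 192 and read GCGCATGCGC, the motif known to be bound by nuclear respiratory factor 1. It is the same on both strands. These letters occur in 0.971% of all promoter windows. Among the 7 receptor windows they occur in 1, that of Cxcr4. The motif was picked from that window, so this count was at least 1 beforehand and is not comparable with the share over all windows. These are descriptions of the letters, and the arrays measured no binding or methylation there.

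Ccr7, the receptor for Ccl19 and Ccl21 that takes lymphocytes and mature dendritic cells to lymph nodes, read 6.38 and 6.29 in Cre-GFP 1 and 2, against 7.30 and 6.88 in control 1 and 2. Both Cre-GFP arrays were low and close to each other, 0.087 apart, and the groups did not overlap. The log2 difference was −0.75 ± 0.18 (SE, n = 2 per group), or 1.69-fold lower in Cre-GFP (95% interval of the log2 difference −1.19 to −0.31). Its unadjusted p was 0.0058 and its adjusted p over all probe sets 0.72 in limma, so it did not pass the threshold. The direction held without each single array, with differences from −0.96 without control 2 to −0.54 without control 1. The Ccr7 values stood at the 48.6 and 48.0 percentiles in Cre-GFP and at the 64.0 and 57.4 percentiles in control. Of the 22 genes of other tissues, 16 and 14 read below Ccr7 in Cre-GFP 1 and 2, against 22 and 19 in control 1 and 2. Ccr7 thus left the span of those genes only in control 1.

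Cxcr5, the receptor for Cxcl13 that guides B cells into follicles, read 7.54 and 6.26 in Cre-GFP 1 and 2, against 7.12 and 7.27 in control 1 and 2. The Cre-GFP arrays held both the highest and the lowest value, 1.28 apart, while the control arrays differed by 0.15. The log2 difference was −0.30 ± 0.40 (SE, n = 2 per group) with a 95% interval from −1.28 to 0.69 and an unadjusted p of 0.49 (limma). Leaving out Cre-GFP 2 turned it to 0.34, and leaving out Cre-GFP 1 gave −0.94, so Cre-GFP 2 decided its sign. In Cre-GFP 2 Cxcr5 stood at the 47.4 percentile, with 14 of the 22 genes of other tissues below it. On the other 3 arrays it stood between the 61.4 and 67.3 percentiles, above all 22.

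Ccr2 binds Ccl2 and releases monocytes from the marrow, and it was read by 3 probe sets that did not give the same picture. Probe set 1421188_at read 5.73 and 5.63 in Cre-GFP 1 and 2, against 4.99 and 5.53 in control 1 and 2. Both Cre-GFP arrays were higher than both control arrays, and control 1 stood apart below the rest. The log2 difference was 0.42 ± 0.19 (SE, n = 2 per group; 95% interval −0.04 to 0.88; unadjusted p of 0.067 in limma), and 0.15 without control 1. The other 2 probe sets, 1421186_at and 1421187_at, were near the floor on every array and differed by 0.04 ± 0.13 and −0.05 ± 0.11. All 3 probe sets lay below the 37th percentile on each array, inside the span of the genes of other tissues.

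Ccr9, the receptor for Ccl25, also had 3 probe sets, of which 1421919_a_at and 1421920_a_at were near the floor on every array and 1427419_x_at on 3 of 4. The last read 4.64 and 4.76 in Cre-GFP 1 and 2, against 4.46 and 4.46 in control 1 and 2. It was higher in both Cre-GFP arrays, by 0.24 ± 0.10 on the log2 scale (unadjusted p of 0.048, adjusted p of 1 in limma). With values under the 20th percentile raised to it, that difference was 0.03. The other 2 probe sets differed by 0.08 ± 0.10 and −0.04 ± 0.10, and their groups overlapped. The suffix of 1427419_x_at marks probes that can bind other transcripts too.

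Ccr1, which binds Ccl3 and Ccl5 on neutrophils and monocytes, was near the floor on every array with both of its probe sets. Probe set 1419609_at read 4.49 and 4.50 in Cre-GFP, against 4.29 and 4.42 in control, a difference of 0.14 ± 0.10 with no overlap. Probe set 1419610_at read 3.42 and 3.42 in Cre-GFP, against 3.33 and 3.55 in control, a difference of −0.02 ± 0.10. Values of this size, at or under the 17th percentile, show no order of Ccr1 between the groups.

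Ccr6 read 5.57 and 5.54 in Cre-GFP, against 5.68 and 5.45 in control. Its difference of −0.02 ± 0.12 (95% interval −0.32 to 0.29, limma) was smaller than the gap of 0.23 between the control arrays. Cx3cr1, the fractalkine receptor of patrolling monocytes and macrophages, read 5.05 and 5.05 in Cre-GFP, against 4.71 and 5.25 in control, on probe set 1450019_at. On probe set 1450020_at it read 5.48 and 5.10 in Cre-GFP, against 5.35 and 5.13 in control. The Cx3cr1 differences were 0.07 ± 0.18 and 0.05 ± 0.16, and in both cases the groups overlapped. The Ccr6 and Cx3cr1 probe sets lay under the 40th percentile of each array, with the value of 1450019_at in control 1 under the 20th.

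**Figure D2:**
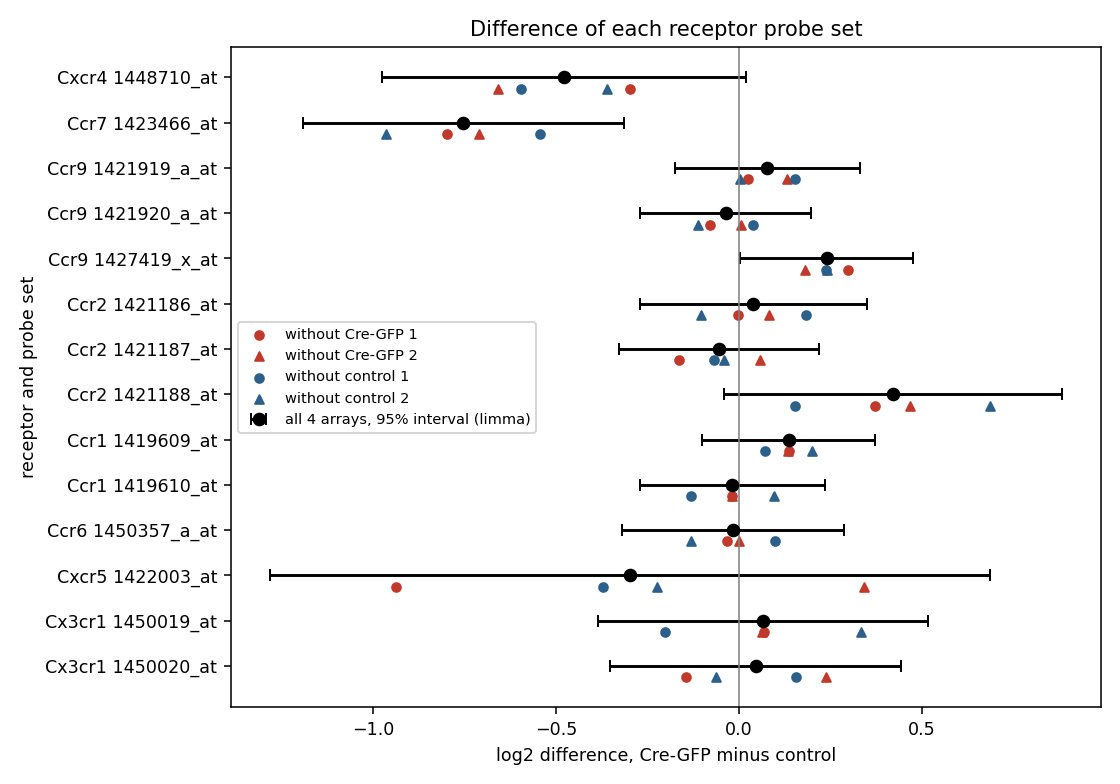
Log2 difference of each receptor probe set, Cre-GFP minus control (horizontal axis), with all 4 arrays (black, with limma's 95% interval) and without each single array (coloured). The interval of Ccr7 runs from −1.19 to −0.31, that of Cxcr5 is the widest of the 14, and the Cxcr5 difference is 0.34 without Cre-GFP 2.

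The intervals bound what these arrays could miss on the deposited scale. For 12 of the 14 probe sets the 95% interval stayed within a log2 difference of 1 either way, the exceptions being Ccr7 and Cxcr5. The sign of the difference was the same without each single array for 6 probe sets: Cxcr4, Ccr7, Ccr1 1419609_at, Ccr2 1421188_at, Ccr9 1421919_a_at and Ccr9 1427419_x_at. Ccr7 was the 1 probe set with an unadjusted p under 0.05 in each of these 4 fits. Since RMA shrinks contrasts among faint probe sets, true folds of the dim receptors may be larger than printed.

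Ccr9, Ccr1 and Ccr2 belong to a run of receptor genes on chromosome 9, and their neighbours in the RefSeq gene order gave a local comparison. From Lztfl1 to Ccr2 the order held 9 genes, all of them measured. Cxcr6, Xcr1, Ccr1l1 and Ccr3, the other receptor genes measured in this run, differed by 0.10 ± 0.14, −0.01 ± 0.11, 0.19 ± 0.16 and 0.11 ± 0.13 on the log2 scale. Each of these 4 lay below the 40th percentile on every array, as did Ccr9, Ccr1 and Ccr2. Of the 2 genes that are not receptors, the ciliary protein gene Lztfl1 differed by −0.11 ± 0.14 and Fyco1, an adaptor of autophagosome transport, by 0.21 ± 0.19. The brightest probe set of Ccr9, near the floor on 3 of 4 arrays, was the 1 of 9 with an unadjusted p under 0.05, against a background of 4.56% of genes read by their brightest probe set.

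Among ligands of the 8 receptors 13 of 16 were measured, 5 higher and 8 lower in Cre-GFP. This list and the pathway lists below were chosen with earlier results known, so their shares beside the background are descriptions only. None of the 13 passed the threshold or had an unadjusted p under 0.05 (limma), against a background of 4.56% of genes read by their brightest probe set (2.38% lower and 2.18% higher). Their median log2 difference was −0.03. Cxcl12, the Cxcr4 ligand, was near the floor on every array at 4.49 and 4.43 in Cre-GFP, against 4.45 and 4.24 in control. Ccl5, which binds Ccr1, read lower in Cre-GFP without overlap, with a log2 difference of −0.24 ± 0.12. The other 11 differed by −0.13 to 0.15, from Ccl20, the Ccr6 ligand, to Ccl3, the Ccr1 ligand. Ccl25 (−0.03 ± 0.13), the ligand of Ccr9, and Ccl8 (−0.04 ± 0.12), also on the list, lay in that range. Ccl2 (−0.07 ± 0.13), Ccl7 (−0.05 ± 0.12) and Ccl12 (0.04 ± 0.09), ligands of Ccr2, were in it as well. So were Cxcl13 (0.02 ± 0.15) and Cx3cl1 (0.02 ± 0.12), the ligands of Cxcr5 and Cx3cr1, and Ccl6 (−0.03 ± 0.14) and Ccl9 (−0.03 ± 0.12), further ligands of Ccr1.

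The other chemokine receptors read much as the dim members did, with 9 of 14 measured genes under the 40th percentile on every array. At an unadjusted p under 0.05 there was 1 of 14, Ackr2, or 7.14% against 4.56% of genes in the background. The median difference was −0.01. Ackr2, a scavenger that takes up inflammatory chemokines, read 5.48 and 5.54 in Cre-GFP, against 5.84 and 5.73 in control, a difference of −0.27 ± 0.11 (−0.09 on its other probe set). Ackr1, the chemokine-binding Duffy antigen, differed by −0.21 ± 0.13 (−0.10 without control 1) and Ccr4, a receptor of T helper and skin-homing cells, by −0.10 ± 0.10 (−0.043 without control 2). Ccr3, the eotaxin receptor of eosinophils, differed by 0.11 ± 0.13 and by −0.048 without Cre-GFP 1.

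Of 14 measured G proteins, arrestins and receptor kinases, 10 were lower in Cre-GFP and none passed the threshold. There were 2 at an unadjusted p under 0.05, Gnai1 and Gng2, or 14.3% against 4.56% of genes in the background. Both were lower (background 2.38%), and the list median was −0.07. Gnai1, an inhibitory alpha subunit, read 5.90 and 5.90 in Cre-GFP, against 7.30 and 8.80 in control. Its difference was −2.15 ± 0.46 (adjusted p of 0.65 in limma), or −1.41 without control 2, and its other 2 probe sets differed by −0.34 and −0.04. Gng2, a gamma subunit, differed by −0.47 ± 0.18 (−0.36 on its other probe set; −0.28 without control 2) and Gnb1, a beta subunit, by −0.58 ± 0.24 (−0.05 and 0.14 on its other probe sets; −0.32 without Cre-GFP 1). Arrb1, an arrestin that ends receptor signalling, differed by 0.18 ± 0.12 (0.097 without Cre-GFP 2). Gnai2, the main inhibitory alpha subunit of blood cells, differed by −0.07 ± 0.18 (0.12 without Cre-GFP 2), and was named after its values were seen.

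RGS proteins, which switch off G protein signals, had 3 of 12 measured genes at an unadjusted p under 0.05, or 25% against 4.56% of genes in the background, and none past the threshold. Of the 3, Rgs18 and Rgs2 were lower (background 2.38%) and Rgs10 was higher (background 2.18%). The list median was −0.04, with 5 higher and 7 lower. Rgs18, an RGS protein of platelets and myeloid cells, read 5.65 and 5.50 in Cre-GFP, against 6.58 and 5.95 in control, a difference of −0.69 ± 0.22. Leaving out control 1 gave −0.38, and a second Rgs18 probe set gave −0.28. Rgs2 differed by −0.54 ± 0.18 (−1.05 on its other probe set, −0.34 without Cre-GFP 2). Rgs1, an inhibitor of chemokine responses in B cells, differed by −0.27 ± 0.11 (−0.18 without control 2) and lay under the 40th percentile on every array. Rgs10 read 7.40 and 7.60 in Cre-GFP, against 6.98 and 7.17 in control, a difference of 0.43 ± 0.16.

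In the migration signalling list 27 of 31 genes were measured, 12 higher and 15 lower, with 3 at an unadjusted p under 0.05 (11.1% against 4.56% of genes in the background), all lower (background 2.38%), and none past the threshold. The 3 were Pik3cg, Coro1a and Ptk2b, and the list median was −0.02. Pik3cg, the PI3 kinase catalytic subunit that G protein beta-gamma subunits activate, read 7.58 and 7.47 in Cre-GFP, against 8.61 and 8.77 in control. Its difference was −1.17 ± 0.16 (adjusted p of 0.31 in limma), or 2.25-fold lower, with −1.09 on its other probe set. Without single arrays it lay between −1.25 and −1.09. Coro1a, an actin regulator of leukocytes, differed by −0.67 ± 0.19 (−0.66 and −0.57 on its other probe sets), and Ptk2b, a tyrosine kinase downstream of chemokine receptors, by −0.61 ± 0.23 (−0.34 without Cre-GFP 2). Pik3cd, the delta PI3 kinase subunit, differed by −0.38 ± 0.16, with −0.22 and 0.18 on its other probe sets.

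**Figure D3:**
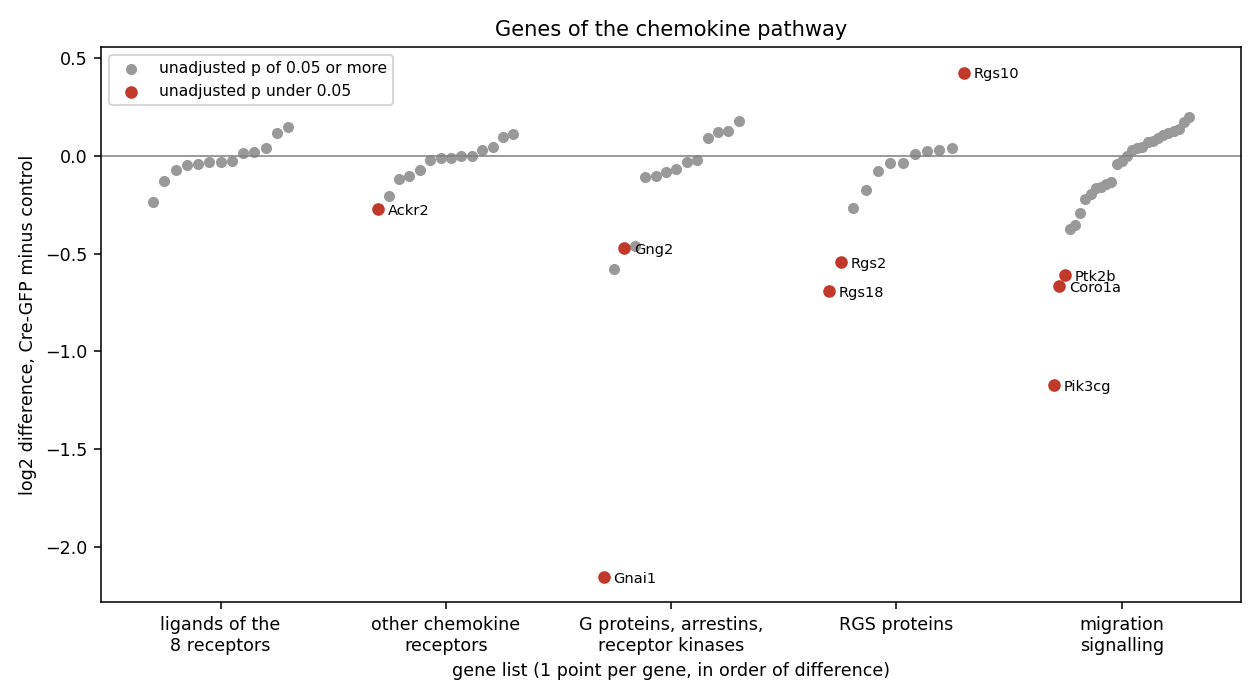
Log2 difference, Cre-GFP minus control (vertical axis), of each measured gene in 5 pathway lists, taken from its brightest probe set and in order of difference within a list. Red points with names had an unadjusted p under 0.05 in limma, and none passed after adjustment. Gnai1 lies at −2.15 and Pik3cg at −1.17, while the 13 ligands lie between −0.24 and 0.15.

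Markers of the cells that carry these receptors varied with the groups and within them, and their part in the receptor values was not tested. The marker lists too were chosen with earlier results known, so their shares beside the background are descriptions only. The cultures read as early B lineage cells, with Igll1 and Vpreb1, the surrogate light chains of pre-B cells, and Dntt, the terminal transferase, at high intensity on all arrays. Over 11 measured B lineage markers the summed intensity was 34396 and 34309 in Cre-GFP, against 37218 and 45671 in control, with 9 of 11 lower, 6 of them without overlap (background 14.6% of all probe sets). At an unadjusted p under 0.05 (limma) there were 4 of the 11, or 36.4%, all lower, against 2.38% of genes in the background, and none passed the threshold. These 4 were Cd79b (−1.70 ± 0.43), Cd79a (−0.80 ± 0.21), Ebf1 (−0.51 ± 0.15) and Ms4a1 (−0.47 ± 0.15, but −0.12 on its other probe set). Ms4a1 lay under the 40th percentile on every array. Dntt and Rag1, a recombinase gene, were the 2 higher members. They differed by 0.19 ± 0.42 and 0.23 ± 0.27 and overlapped between the groups. Over 8 monocyte and macrophage markers the summed intensity was 2221 and 1515 in Cre-GFP, against 874 and 1333 in control, with 7 of 8 higher. The brightest were Csf1r, the receptor of macrophage growth factor, at 10.01 and 9.32 in Cre-GFP, against 8.16 and 8.91 in control, and Lyz2, a lysozyme, at 9.39 and 8.88 in Cre-GFP, against 7.55 and 8.76 in control. The other 2 probe sets of Csf1r differed by 0.17 and 0.36, against 1.13 on the brightest. Itgam and Fcgr1, defining markers named for being near the floor on every array, differed by 0.08 ± 0.10 and 0.07 ± 0.09. Over 11 dendritic markers it was 1006 and 942 in Cre-GFP, against 1034 and 1009 in control, with 7 of 11 higher. At an unadjusted p under 0.05 there were 3 of the 11, or 27.3% against 4.56% of genes in the background. They were H2-Ab1, an MHC class II chain (−0.92 ± 0.21, but −0.41 and −0.09 on its other 2 probe sets), Relb, an NF-kappa B subunit (−0.44 ± 0.15), and Cd83 (0.24 ± 0.09), near the floor on every array. These 3, Rag1, Cd79b, Cd79a, Ebf1 and Ms4a1 were named after their values were seen. The Ccr7 values, the Cxcr4 values and the B lineage sums were each lower in both Cre-GFP arrays. Within the controls their order differed. Ccr7 was higher in control 1 (7.30 against 6.88 in control 2). The B lineage sum and Cxcr4 (9.53 in control 1, 9.77 in control 2) were higher in control 2. The Ccr2 1421188_at values and the monocyte sums were both lowest in control 1. Neutrophil marker sums were 3562 and 4231 in Cre-GFP, against 1420 and 5217 in control, so that control 1 was low and control 2 high. Of the 9 neutrophil markers 6 were higher and 3 lower, with 1 at an unadjusted p under 0.05 (11.1% against 4.56% of genes in the background). It was Mpo, at 7.32 and 7.32 in Cre-GFP, against 6.21 and 5.93 in control. Its difference was 1.25 ± 0.15 (adjusted p of 0.24 in limma), and Mpo too was named after its values were seen. The T lineage markers summed to 444 and 397 in Cre-GFP, against 431 and 405 in control, with 7 of 9 under the 40th percentile on every array. Sums of the NK markers were 708 and 978 in Cre-GFP, against 882 and 569 in control. Mast cell, basophil and eosinophil, erythroid and stromal marker sums lay between 353 and 442 on every array.

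**Figure D4:**
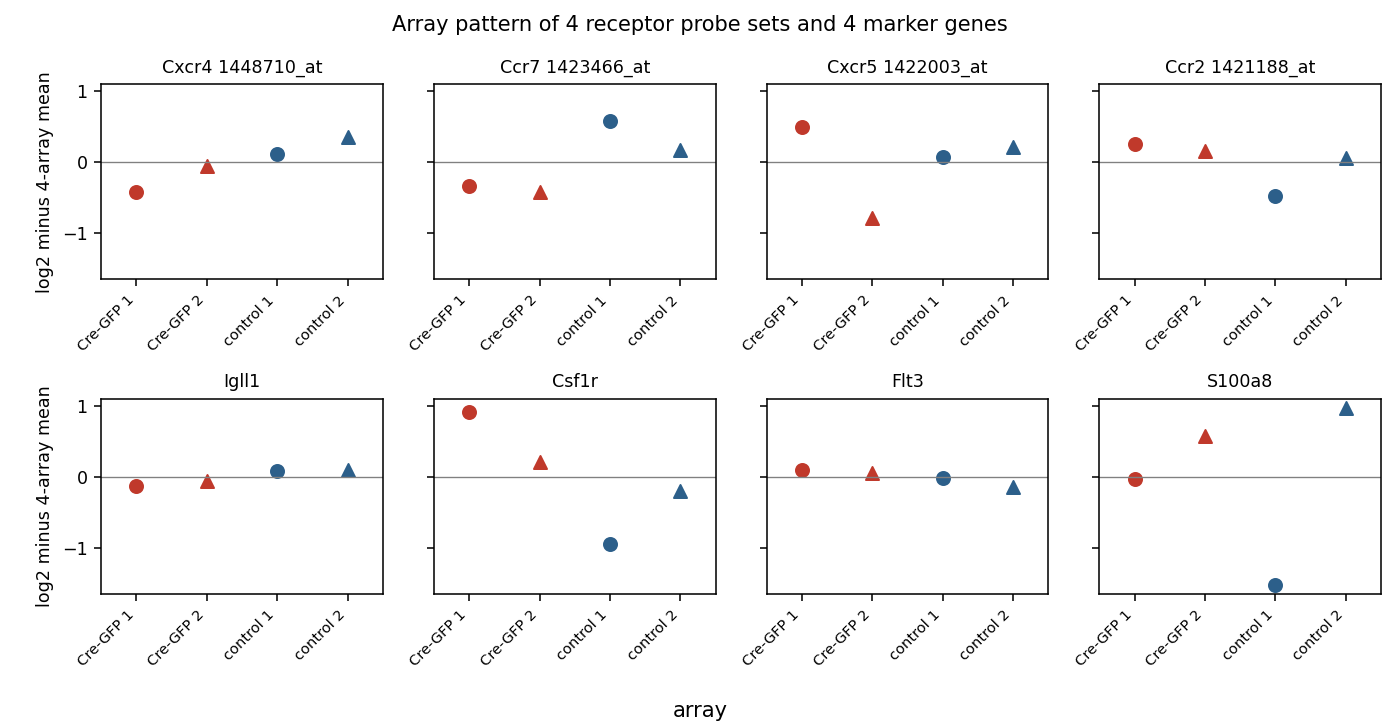
Log2 value minus the 4-array mean (vertical axis) on each array (horizontal axis) for 4 receptor probe sets (top) and for the marker with the highest mean of the B lineage, monocyte, dendritic and neutrophil lists (bottom). Cre-GFP arrays are red and control arrays blue. Cxcr4 and Ccr7 are lower in both Cre-GFP arrays, Cxcr5 is low in Cre-GFP 2 alone, and Ccr2 1421188_at, Csf1r and S100a8 are lowest in control 1.

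As a description over the 4 arrays, the array pattern of the 8 receptor probe sets not near the floor on every array was matched to 16994 or 16993 probe sets of other genes. Likeness was the root mean square difference of log2 values after each probe set was centred on its mean. For Cxcr4 the nearest were Vwa5a (0.025), Sri (0.029) and Zfp110 (0.038), and for Ccr7 Csf1 (0.033) and 2 probe sets of Prkd2 (0.049 and 0.060). For Cxcr5 they were Hip1r (0.056), Gpr155 (0.13) and Irf8 (0.13). The number of probe sets within 0.1 depends on how wide a pattern is. It was 1 for Cxcr5, whose own root mean square deviation was 0.48, and 12 for Ccr7 (0.41). For Ccr2 1421188_at (0.28) it was 62, and for Cxcr4 (0.28) it was 121. For Ccr2 1421188_at the nearest were Hes6 (0.0055), Gpx7 (0.014) and Saysd1 (0.021), and for Ccr9 1427419_x_at Bphl (0.0091), Aldh9a1 (0.012) and Siva1 (0.013). For Ccr6 they were Atp7b (0.0035), Dlk2 (0.0073) and Utrn (0.0081). The 2 Cx3cr1 probe sets had Cacna1f (0.0055), Tmem234 (0.017) and Raly (0.019) nearest to 1450019_at and Ankrd54 (0.0058), Ints9 (0.014) and Usf1 (0.015) nearest to 1450020_at. With 453 to 4506 probe sets within 0.1 of the Ccr9, Ccr6 and Cx3cr1 patterns, these flat patterns singled out no gene.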

How the data were processed

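The series holds 4 arrays of mouse bone marrow cells, 2 Cre-GFP and 2 control. The deposited table gives intensity on a linear scale for 22690 probe sets, made by the authors with RMA per the submitters' processing notes; the version and settings are not given in the sources used here, and scanner files were not used here. Intensities were used as deposited, after log2; median intensities were 85.1 to 87.7. By the platform annotation, 20393 probe sets had 1 symbol, 691 had several and 1606 had none. The tests used limma 3.58.1 under R 4.3.3 (lmFit, eBayes with an intensity trend, two-sided, Benjamini-Hochberg over the 20393), with a threshold of 0.05, and the fit was tested on simulated data. Errors after ± are limma's SE. An exact two-sided permutation test of 2 against 2 arrays cannot go below 0.33. In lists, each gene was read by its brightest probe set; 179 of 203 list entries were measured. All receptor probe sets were named, every ligand, up to 4 members with the smallest p per other pathway list, up to 3 brightest markers per cell type and the 3 nearest array patterns. The receptors and lists were chosen with earlier results of these data known. Having 4 arrays limits the precision: the median 95% interval reached 0.37 to either side on the log2 scale. Alternatives were another variance model, other probe set choices, rescaling, treatment of dim values, a replicate block and leaving out each array.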

Additional observations from a re-analysis of the deposited data

How the results depend on the processing

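No receptor probe set passed the adjusted threshold under any of the 12 alternatives (0 of 14, but of 8 with 1 probe set per gene and of 3 without the dimmest 40%, which were the ones fitted). Of 151 recomputed differences, 136 kept their sign, but part of that count was fixed beforehand. Fits without the intensity trend, with all probe sets, with 1 probe set per gene, without the dimmest 40% or with the replicate block left each difference unchanged. All 15 reversals came from raising values under the 20th percentile to it or from leaving out single arrays. Over all probe sets 0 passed, also with the replicate number as a replicate block, but 0 to 25 when single arrays were left out, with 25 without control 1 and 1 without control 2. At an unadjusted p under 0.05 there were 2 receptor probe sets, Ccr7 and Ccr9 1427419_x_at, also with all probe sets fitted and with 1 probe set per gene. With the replicate block the 2 were Cxcr4 and Ccr7. The same held without the intensity trend (limma p of 0.039 for Cxcr4 and 0.091 for Ccr9 1427419_x_at) and with arrays quantile normalized again (0.044 and 0.054). Raising values under the 20th percentile to it gave 3, namely Cxcr4, Ccr7 and the brightest Ccr2 probe set. There was 1 with arrays scaled to the same median and 1 without the dimmest 40% of probe sets (fewer probe sets fitted). The cause of the other shifts was not tested. With the 40th percentile as floor, 11 probe sets in place of 6 were near it. With values under the 20th percentile raised to it, Ccr9 1421919_a_at, Ccr2 1421186_at and Ccr1 1419609_at turned to −0.0036, the shift this rule gives any probe set near the floor on all arrays.

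Without single arrays, differences ran from −0.11 to 0.038 for Ccr9 1421920_a_at, −0.10 to 0.18 for Ccr2 1421186_at, −0.16 to 0.057 for Ccr2 1421187_at, −0.13 to 0.096 for Ccr1 1419610_at, −0.13 to 0.099 for Ccr6, −0.94 to 0.34 for Cxcr5, −0.20 to 0.34 for Cx3cr1 1450019_at and −0.14 to 0.24 for Cx3cr1 1450020_at. Arrays of the same number deviated together (correlation 0.36 across probe sets), but with 2 numbers this does not show pairing. With the block, unadjusted p-values in limma were 0.016 for Cxcr4, 0.0047 for Ccr7 and 0.052 for Ccr9 1427419_x_at. Dim signal limits the rest: 9 of 14 probe sets read inside the span of genes of other tissues on every array, and Ccr1 1419610_at read below it on all 4.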
